A study of Homo sapiens with 18 samples.

Results

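The genes described here encode aminoacyl-tRNA synthetases, the enzymes that attach amino acids to transfer RNAs. They were taken by symbol, as the rows of 36 listed names among the 23686 rows held by the tables of both cell lines, and all 36 were found in both. By their names they form 20 cytosolic enzymes and 16 mitochondrial enzymes, the latter being the listed symbols that end in 2. All 36 passed the low-count filter in both lines, so every count of genes below is out of the full 20 or 16. The smallest estimated count of any of them in a library was 124 in OCI-Ly1 and 100 in TMD8, both for PARS2.

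RNA was sequenced from OCI-Ly1 and TMD8, established human cell lines of diffuse large B-cell lymphoma, after exposure to JIB-04, an inhibitor of histone demethylases of the Jumonji family. Each line had 3 groups of 3 libraries, namely 0.01% DMSO (the vehicle), 150 nM JIB-04 and 500 nM JIB-04, which makes 18 libraries. The OCI-Ly1 groups were all grown in IMDM and the TMD8 groups all in RPMI 1640, so cell line and medium cannot be told apart. The labels call the libraries technical triplicates, do not say whether separate cultures were treated, and give no treatment time, so the p-values below measure only the spread between these libraries. The comparisons ask whether each dose of the inhibitor changed the RNA of these enzymes, whether cytosolic and mitochondrial enzymes changed alike, and whether the lines differed.

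Translation in the cytosol and translation in mitochondria use separate sets of transfer RNAs, and most amino acids have a separate synthetase gene for each compartment. Both sets are encoded in the nucleus. There are exceptions: GARS (glycine) and KARS (lysine) each make both the cytosolic and the mitochondrial enzyme from 1 gene, QARS (glutamine) serves the cytosol, EPRS joins the glutamate and proline enzymes in a single cytosolic protein, and the cytosolic phenylalanine enzyme is built of the FARSA and FARSB subunits. Several cytosolic synthetases sit together in a large assembly, the multisynthetase complex, held by the AIMP scaffold proteins. Many cytosolic synthetase genes are known targets of the transcription factor ATF4 in the integrated stress response, which cells turn on when amino acids are short or proteins misfold, and ATF4 with a C/EBP partner binds composite elements that contain the letters TGATGNAA.

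That element is shown for the listed genes because the genes whose promoters hold it can then be followed through the doses. The letters TGATGNAA were searched on both strands of RefSeq promoter windows (build GRCh38.p14), each running from 250 bases before to 50 bases after an annotated gene start. A window was found for 30 of the 36 genes, and not for DARS, LARS, VARS, YARS, AARS2 and VARS2. The 8 matches are printed 5′ to 3′ on the strand that reads TGATGNAA, with the match in capitals and 10 bases on each side.
AARS (chr16:70289676-70289703, plus strand): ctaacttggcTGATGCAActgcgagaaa
CARS (chr11:3057408-3057435, plus strand): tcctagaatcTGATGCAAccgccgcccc
GARS (chr7:30594835-30594862, minus strand): gctcggagcaTGATGAAAtcgccgcgta
IARS (chr9:92293693-92293720, plus strand): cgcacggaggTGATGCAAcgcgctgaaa
MARS (chr12:57488054-57488081, minus strand): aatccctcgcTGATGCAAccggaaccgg
NARS (chr18:57621805-57621832, minus strand): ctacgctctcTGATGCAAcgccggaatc
TARS (chr5:33440957-33440984, minus strand): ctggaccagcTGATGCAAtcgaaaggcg
YARS2 (chr12:32756077-32756104, minus strand): tccacactgcTGATGGAAaaattaagtt
The match began 187 bases before the start of AARS, 2 before CARS, 33 before GARS, 13 before IARS, 4 before MARS and 197 before YARS2, while in NARS and TARS it began 14 and 2 bases after the start. The matches read TGATGCAA in AARS, CARS, IARS, MARS, NARS and TARS, TGATGAAA in GARS and TGATGGAA in YARS2. In all, 7 of 16 cytosolic genes with a window (43.8%) and 1 of 14 mitochondrial genes (7.14%) held the letters, beside 1217 of 27305 genes of the whole promoter table (4.46%). A match describes letters in a window and was not tested as a binding site.

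The OCI-Ly1 libraries held 17579732 to 32651115 estimated counts each and the TMD8 libraries 9550092 to 20509500, and no pair of libraries of a group agreed within sampling noise (chi-square per degree of freedom 1.62 to 10.9 over 18 pairs). The highest values were those of TMD8 DMSO replicate 1, at 10.3 against replicate 2 and 10.9 against replicate 3. Replicates 2 and 3 of that group gave 1.90 against each other. All 6 B-cell markers were detected in both lines, with summed TPM (transcripts per 1000000, a level per length) of 875 to 990 in OCI-Ly1, and of 801 to 933 with DMSO and 538 to 618 at 500 nM in TMD8 (1 of 6 rose and 4 fell there). T-cell markers summed to 26.7 to 28.9 TPM with DMSO and 11.9 to 13.8 TPM at 500 nM in OCI-Ly1 (3 of 4 fell), and to at most 1.82 TPM in TMD8, where CD3E was at 0 in every library. Myeloid markers stayed at or under 1.53 TPM in both lines, with MPO at 0 in OCI-Ly1, and fibroblast markers reached 2.98 TPM at 500 nM in TMD8 against 0.510 to 0.620 TPM with DMSO, with COL1A1 called higher. Epithelial markers summed to 14.4 to 19.8 TPM over both lines, with CDH1 and EPCAM lower in OCI-Ly1 and KRT18 higher in TMD8 at 500 nM. The germinal-centre-like markers summed to 164 to 202 TPM in OCI-Ly1, and to 32.4 to 40.4 TPM with DMSO and 16.5 to 18.3 TPM at 500 nM in TMD8, where LMO2 fell while BCL6 and MYBL1 rose on scaled counts. In OCI-Ly1 at 500 nM MME and MYBL1 fell and LMO2 rose. These sums hide single genes: LMO2 was at 0 to 1.06 TPM in OCI-Ly1 and 6.75 to 28.1 TPM in TMD8. MME was at most 0.0298 TPM in TMD8. The activated-B-like markers went from 147 to 148 TPM with DMSO to 297 to 314 TPM at 500 nM in OCI-Ly1 and from 599 to 745 TPM to 356 to 408 TPM in TMD8, where IRF4 and CCND2 fell and FOXP1 and PIM2 rose on scaled counts. In OCI-Ly1 IRF4, FOXP1 and PIM2 rose, and CCND2 was at most 0.0718 TPM. The part of these markers in the synthetase results was not tested.

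With DMSO the cytosolic enzymes were the more abundant set in each line. In OCI-Ly1 the 20 cytosolic genes had DMSO means of 28.1 to 216 TPM with a median of 118 TPM, and the 16 mitochondrial genes 4.16 to 78.2 TPM with a median of 22.4 TPM. In TMD8 the same ranges were 15.1 to 99.4 TPM with a median of 42.0 TPM and 3.17 to 35.5 TPM with a median of 10.1 TPM. The order began with IARS (isoleucine, 216 ± 5.76 TPM, mean ± SD of 3 libraries), KARS (213 ± 8.18 TPM) and GARS (206 ± 6.20 TPM) in OCI-Ly1, and with QARS (99.4 ± 12.4 TPM), KARS (96.1 ± 16.8 TPM) and FARSA (76.2 ± 3.02 TPM) in TMD8. IARS2, the mitochondrial isoleucine enzyme, was the most abundant mitochondrial enzyme in both, and PARS2, the mitochondrial proline enzyme, the least abundant of all 36. Neighbours in this order were often not separated: of 35 neighbouring pairs, the 3 DMSO libraries overlapped in 19 in OCI-Ly1 and in 30 in TMD8. The tables of the lines were made separately, so the levels stand side by side only.

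At 500 nM in OCI-Ly1, cytosolic synthetases rose and fell over a wide range, from −0.62 to 2.22 on the log2 scale, and mitochondrial synthetases over a narrow one, from −0.39 to 0.31. Of the 20 cytosolic genes 11 rose and 7 fell, with a median log2 fold change of 0.45, and of the 16 mitochondrial genes 3 rose and 8 fell, with a median of −0.13. The threshold was an adjusted p under 0.05 in edgeR's quasi-likelihood test over all genes, which called 53.6% of the 15638 genes tested (27.7% higher, 25.9% lower), with a median log2 fold change of −0.0033. The 18 of 20 called cytosolic genes and 11 of 16 called mitochondrial genes are to be read against that share. In bulk RNA, fewer cells of a type and less RNA per cell cannot be told apart. On the log2(TPM + 1) scale the counts were 12 higher and 4 lower for the cytosolic genes and 4 and 4 for the mitochondrial genes, whose median log2 fold change turned from −0.13 to 0.005, while the same values centred on the median of all genes gave 11 and 7, and 0 and 11.

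**Figure D1:**
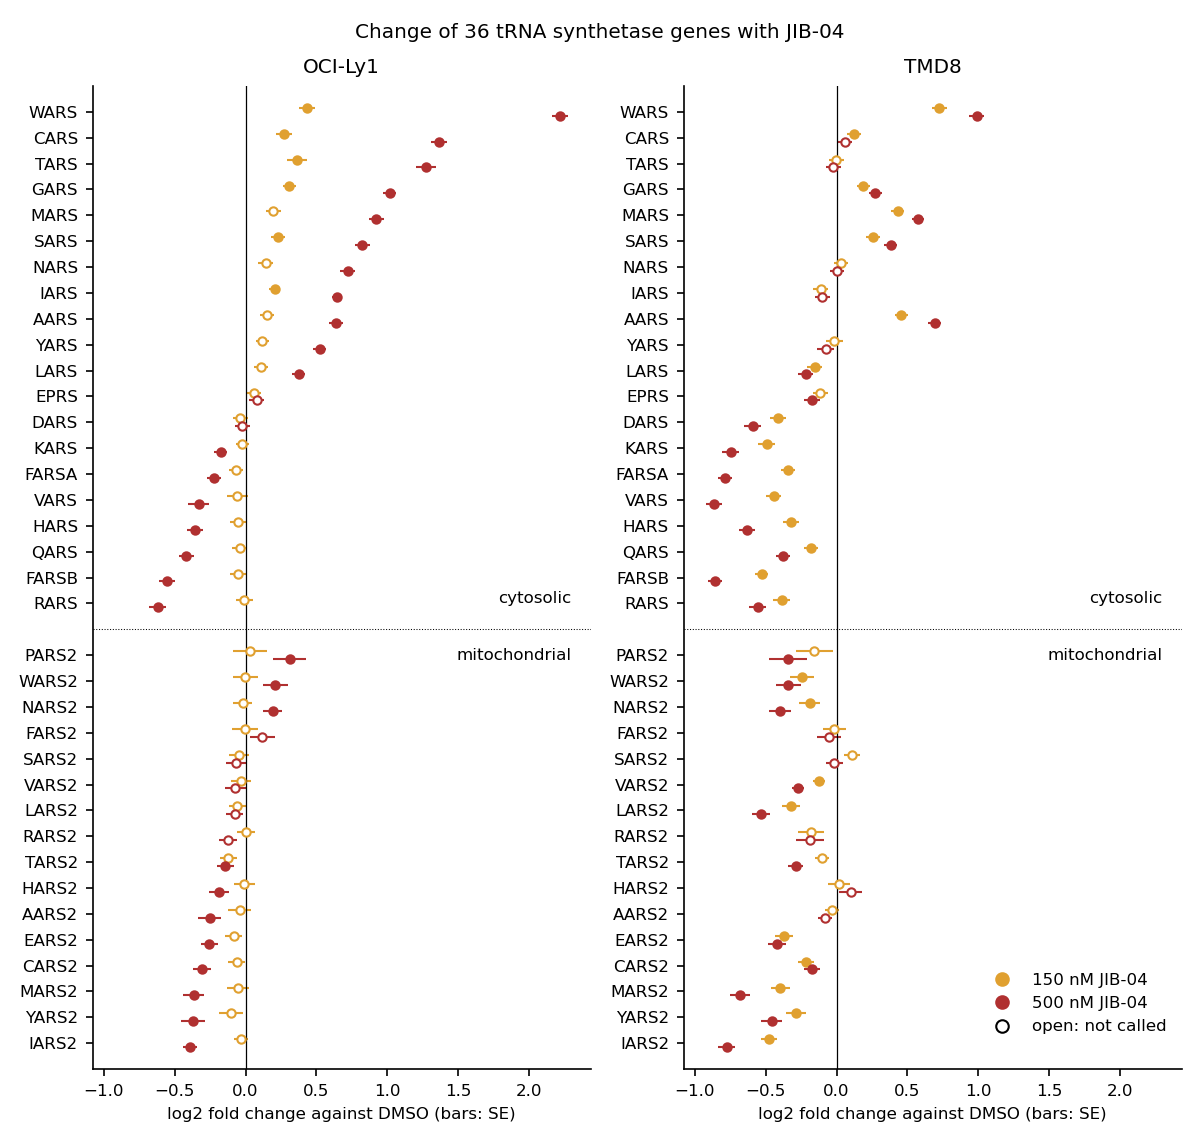
Change against DMSO of each of the 36 genes in OCI-Ly1 and TMD8 at 150 and 500 nM JIB-04, as log2 fold change from edgeR on scaled counts (horizontal axis, bars are SE, open points did not pass the adjusted p of 0.05). In OCI-Ly1 11 cytosolic genes are called above 0 at 500 nM and in TMD8 5 are, and in TMD8 no mitochondrial gene is called above 0. The positions of GARS, SARS, CARS, NARS and HARS2 at 500 nM in TMD8 turn below 0 on log2(TPM + 1).

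The largest change was that of WARS, the tryptophan enzyme. Levels are given in CPM, estimated counts per 1000000 of the library after TMM scaling. WARS was at 75.3, 71.2 and 76.5 CPM under DMSO, 103, 102 and 96.6 CPM under 150 nM and 367, 349 and 325 CPM under 500 nM. Each dose lay above the one before it with no overlap. At 500 nM it was 4.66-fold higher (log2 fold change 2.22 ± 0.0588, SE, n = 3 per group, edgeR adjusted p = 3.91e-15). CARS, the cysteine enzyme, was at 55.7, 57.0 and 52.3 CPM under DMSO, 66.5, 66.1 and 66.4 CPM under 150 nM and 146, 140.1 and 139 CPM under 500 nM. It too rose without overlap between any 2 groups, by 1.37 ± 0.0551 on the log2 scale at 500 nM (edgeR adjusted p = 8.14e-13). TARS, the threonine enzyme, was at 102, 103 and 114 CPM under DMSO, 128, 138 and 144 CPM under 150 nM and 285, 248 and 238 CPM under 500 nM. All 3 libraries at 500 nM exceeded every other OCI-Ly1 library, with a log2 fold change of 1.27 ± 0.0692 against DMSO (edgeR adjusted p = 5.55e-11). GARS was at 427, 433 and 434 CPM under DMSO, 508, 534 and 561 CPM under 150 nM and 917, 857 and 844 CPM under 500 nM. Its groups did not overlap either, and it rose 2.02-fold at 500 nM (log2 fold change 1.02 ± 0.0477, edgeR adjusted p = 6.61e-12).

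The other cytosolic genes that rose in OCI-Ly1 at 500 nM were MARS (methionine), SARS (serine), NARS (asparagine), IARS, AARS (alanine), YARS (tyrosine) and LARS (leucine), with log2 fold changes from 0.38 (LARS) to 0.92 (MARS). All 7 genes with the element TGATGNAA among the cytosolic enzymes rose in this comparison. They were AARS, CARS, GARS, IARS, MARS, NARS and TARS, out of 9 risen genes with a window. WARS and SARS rose and held no such letters in their windows. The 6 fallen cytosolic genes with a window did not hold them either. Among all genes with a window, 1217 of 27305 (4.46%) held the letters. Absence from 6 genes therefore does not set the fallen genes apart from all genes. LARS and YARS rose as well and had no window. Rises were not counted among the other genes with these letters in either line. Of all genes tested, 27.7% rose in OCI-Ly1 at this dose.

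The cytosolic genes that fell in OCI-Ly1 at 500 nM were RARS (arginine), FARSB and FARSA (the subunits of the phenylalanine enzyme), QARS, HARS (histidine), VARS (valine) and KARS. RARS was at 116, 128 and 127 CPM under DMSO, 118, 123 and 127 CPM under 150 nM and 85.3, 76.8 and 78.9 CPM under 500 nM. DMSO and 150 nM libraries overlapped, and all 3 libraries at 500 nM lay below them. Its log2 fold change at 500 nM was −0.62 ± 0.0606 (edgeR adjusted p = 1.49e-07). FARSB was at 161, 163 and 173 CPM under DMSO, 152, 158 and 169.6 CPM under 150 nM and 115, 109 and 115 CPM under 500 nM. The libraries at 500 nM again lay apart and low, with a log2 fold change of −0.56 ± 0.0557 (edgeR adjusted p = 2.08e-07). KARS was at 331, 319 and 328 CPM under DMSO, 318, 310.5 and 334 CPM under 150 nM and 293, 288 and 286 CPM under 500 nM. It fell by 0.17 on the log2 scale (SE 0.0459, edgeR adjusted p = 0.00406), the smallest called fall among the cytosolic genes. That call was lost with no scaling beyond library size (−0.086, edgeR adjusted p = 0.106) and on log2(TPM + 1) (−0.045, limma adjusted p = 0.509). The calls of FARSA (−0.086, limma adjusted p = 0.168) and VARS (−0.184, limma adjusted p = 0.0801) were also lost on log2(TPM + 1). DARS (aspartate, log2 fold change −0.02, 95% interval −0.13 to 0.08) and EPRS (0.08, 95% interval −0.02 to 0.18) did not pass the test. The 8 enzymes of the multisynthetase complex (EPRS, IARS, LARS, MARS, QARS, RARS, KARS and DARS) split into 3 higher and 3 lower with a median of 0.03, whereas the other 12 cytosolic genes split into 8 higher and 4 lower with a median of 0.68. That difference between the 2 sets was not tested.

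Among the mitochondrial genes of OCI-Ly1 at 500 nM, called changes stayed between −0.39 (IARS2) and 0.31 (PARS2) on the log2 scale. IARS2 was at 210.5, 223 and 209 CPM under DMSO, 207, 209 and 212 CPM under 150 nM and 162, 162 and 166 CPM under 500 nM. The libraries at 500 nM lay below all others, and the log2 fold change was −0.39 ± 0.0482 (edgeR adjusted p = 2.53e-06). MARS2, the mitochondrial methionine enzyme, was at 45.1, 47.2 and 40.6 CPM under DMSO, 46.4, 41.1 and 40.3 CPM under 150 nM and 36.2, 32.5 and 34.0 CPM under 500 nM. Its fall was −0.37 ± 0.0763 on the log2 scale (edgeR adjusted p = 5.95e-04), with no overlap with DMSO. YARS2, the mitochondrial tyrosine enzyme and the mitochondrial gene with the element TGATGNAA, was at 43.6, 48.1 and 39.5 CPM under DMSO, 43.1, 41.5 and 37.0 CPM under 150 nM and 34.4, 30.2 and 36.3 CPM under 500 nM. It fell by 0.37 (SE 0.0855, edgeR adjusted p = 0.00137), again without overlap with DMSO. CARS2, EARS2 (glutamate), AARS2, HARS2 and TARS2 also fell, by less, and AARS2 did so with overlapping groups. The call of AARS2 was lost when DMSO replicate 2 or 500 nM replicate 1 or 3 was left out (edgeR adjusted p = 0.0563 to 0.0670).

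The mitochondrial genes that rose in OCI-Ly1 at 500 nM were PARS2, WARS2 and NARS2, the proline, tryptophan and asparagine enzymes. PARS2 was at 7.49, 7.28 and 7.67 CPM under DMSO, 8.68, 7.22 and 7.02 CPM under 150 nM and 9.21, 9.64 and 9.09 CPM under 500 nM. WARS2 was at 13.9, 14.0 and 15.0 CPM under DMSO, 14.0, 14.7 and 14.1 CPM under 150 nM and 15.9, 17.7 and 16.1 CPM under 500 nM. NARS2 was at 50.4, 57.7 and 51.8 CPM under DMSO, 52.2, 52.0 and 53.0 CPM under 150 nM and 64.4, 59.9 and 57.8 CPM under 500 nM. In each of the 3 genes the libraries at 500 nM lay above the DMSO libraries, in NARS2 by as little as 57.8 against 57.7 CPM. The log2 fold changes were 0.31 ± 0.117 for PARS2, 0.21 ± 0.0867 for WARS2 and 0.19 ± 0.0655 for NARS2 (edgeR adjusted p = 0.0311, 0.0485 and 0.0203). Each of these 3 calls depended on single libraries. The call of PARS2 was lost when DMSO replicate 1, 2 or 3 or 500 nM replicate 1 or 2 was left out (edgeR adjusted p = 0.0534 to 0.0786). The call of WARS2 was lost when DMSO replicate 1 or 2 or 500 nM replicate 1, 2 or 3 was left out (edgeR adjusted p = 0.0605 to 0.177). The call of NARS2 was lost when DMSO replicate 1 or 3 or 500 nM replicate 1 was left out (edgeR adjusted p = 0.0686 to 0.122). With the replicate number as a block the adjusted p of WARS2 was 0.053. FARS2, LARS2, RARS2, SARS2 and VARS2 did not pass the test, with log2 fold changes from −0.12 (RARS2) to 0.12 (FARS2).

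**Figure D2:**
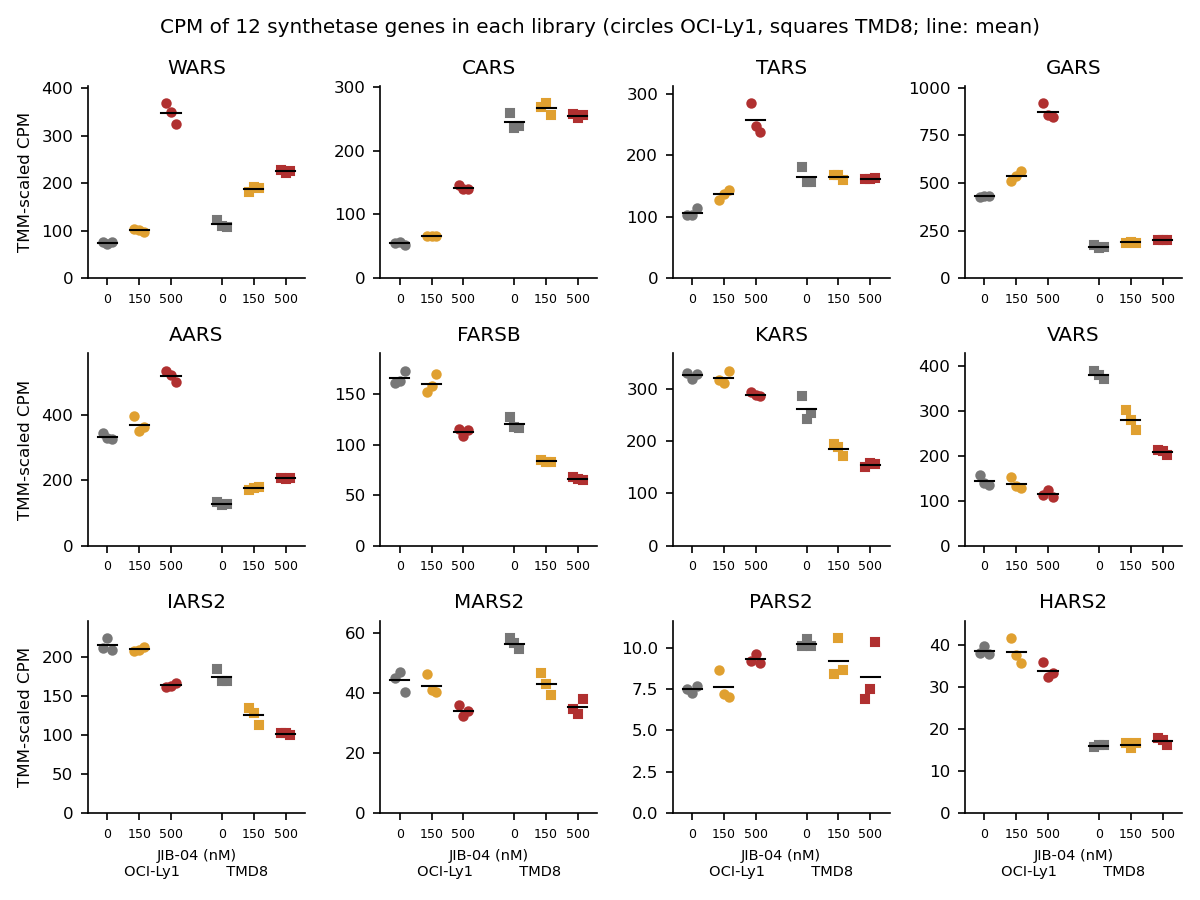
TMM-scaled CPM (vertical axis, from 0) of 12 synthetase genes in each of the 18 libraries, by JIB-04 dose, with circles for OCI-Ly1, squares for TMD8 and a line at the mean of 3 libraries. WARS, CARS, TARS, GARS and AARS are highest at 500 nM in OCI-Ly1, where KARS, VARS, IARS2 and MARS2 are lowest. In TMD8 KARS, VARS, FARSB and IARS2 stand apart in the order of dose, and levels between the lines come from tables made separately.

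At 150 nM in OCI-Ly1, only cytosolic enzymes passed the test. WARS, TARS, GARS, CARS, SARS and IARS rose, none fell, and none of the 16 mitochondrial genes was called, in a comparison that called 0.889% of the 15638 genes tested (0.748% higher, 0.141% lower). The median log2 fold change was 0.11 for the cytosolic genes, −0.04 for the mitochondrial genes and −0.0046 for all genes. At an unadjusted p under 0.05 in edgeR, 0 cytosolic genes were lower and 0 mitochondrial genes differed, and DESeq2 also called 0 of either. The largest of the 6 was WARS, with a log2 fold change of 0.43 ± 0.0585 (edgeR adjusted p = 4.35e-04), and the smallest was IARS, at 771, 773 and 776 CPM with DMSO and 885, 883 and 909 CPM at 150 nM (log2 fold change 0.21 ± 0.0386, edgeR adjusted p = 0.00937). TARS and GARS changed by 0.36 ± 0.0695 and 0.31 ± 0.0475 on the log2 scale (edgeR adjusted p = 0.0118 and 0.00160). SARS was at 205, 195 and 198 CPM with DMSO, 234, 226 and 239 CPM at 150 nM and 367, 356 and 336 CPM at 500 nM. In all 6 genes the 150 nM libraries lay above the DMSO libraries without overlap, and the 500 nM libraries lay above those. The call of CARS was lost when DMSO replicate 1 or 3 or 150 nM replicate 2 or 3 was left out (edgeR adjusted p = 0.0524 to 0.0960). The call of SARS was lost when DMSO replicate 2 or 3 or 150 nM replicate 2 or 3 was left out (edgeR adjusted p = 0.0610 to 0.175). The call of TARS was lost when DMSO replicate 1 or 2 or 150 nM replicate 2 or 3 was left out (edgeR adjusted p = 0.0562 to 0.0835). On the log2(TPM + 1) scale 3 of the cytosolic genes were called higher, and 2 after centring on all genes.

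In TMD8 at 500 nM, fewer cytosolic enzymes rose, more fell, and no mitochondrial enzyme rose. Of the 20 cytosolic genes 5 rose and 10 fell, with a median log2 fold change of −0.14, and of the 16 mitochondrial genes none rose and 11 fell, with a median of −0.32. The comparison called 60.7% of the 15363 genes tested (29.9% higher, 30.7% lower), with a median of 0.0414 over all genes. The TPM tables scale TMD8 differently: on log2(TPM + 1) the median of all genes was −0.219 and the counts became 2 higher and 15 lower for the cytosolic genes and 0 and 16 for the mitochondrial genes. After centring on that median the counts were 5 and 13, and 0 and 13. At an unadjusted p under 0.05 in edgeR 0 mitochondrial genes were higher, DESeq2 called 0 higher, and edgeR with no scaling beyond library size called 1.

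WARS again rose most. The TMD8 libraries measured 123, 109.9 and 107 CPM under DMSO, 181, 191 and 189.8 CPM under 150 nM and 228, 222 and 226 CPM under 500 nM. Each dose lay above the one before it, and the log2 fold change at 500 nM was 0.99 ± 0.0526 (edgeR adjusted p = 3.73e-11). AARS was at 133, 123 and 128 CPM under DMSO, 171, 175 and 180.3 CPM under 150 nM and 208, 205 and 207 CPM under 500 nM. Its groups did not overlap, and it rose by 0.69 ± 0.0455 (edgeR adjusted p = 5.79e-10). MARS was at 145, 136 and 137 CPM under DMSO, 188, 187 and 188 CPM under 150 nM and 210.4, 209 and 203 CPM under 500 nM. It rose by 0.58 ± 0.0448 on scaled counts with no overlap between the groups (edgeR adjusted p = 4.87e-09). The MARS call was lost on log2(TPM + 1) (0.195, limma adjusted p = 0.102). In TPM its groups overlapped, at 32.1 to 40.0 TPM with DMSO and 37.9 to 41.4 TPM at 500 nM. SARS was at 113, 103 and 109 CPM under DMSO, 128, 131 and 129 CPM under 150 nM and 143, 142 and 138 CPM under 500 nM. GARS was at 174, 161 and 162 CPM under DMSO, 186, 192 and 188 CPM under 150 nM and 199, 199 and 202 CPM under 500 nM. Both rose without overlap on these scaled counts, by 0.38 ± 0.0467 for SARS and 0.27 ± 0.0458 for GARS (edgeR adjusted p = 1.30e-06 and 5.18e-05), but on log2(TPM + 1) their differences were −0.012 and −0.1, so their direction depends on the scaling.

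The cytosolic genes that fell most in TMD8 were VARS and FARSB. VARS was at 389, 379.6 and 372 CPM under DMSO, 302, 281 and 257 CPM under 150 nM and 214, 211 and 201 CPM under 500 nM. The libraries fell with each dose without overlap, to a log2 fold change of −0.87 ± 0.0551 at 500 nM (edgeR adjusted p = 3.96e-10). FARSB was at 128, 117 and 117 CPM under DMSO, 85.0, 82.5 and 83.0 CPM under 150 nM and 68.0, 66.5 and 64.7 CPM under 500 nM. It fell by 0.86 on the log2 scale (SE 0.0501, edgeR adjusted p = 1.27e-10), and FARSA, the other subunit of the same enzyme, by 0.79 (SE 0.0514, edgeR adjusted p = 5.09e-10). KARS was at 286, 243 and 253 CPM under DMSO, 195, 188 and 172 CPM under 150 nM and 151, 158 and 157 CPM under 500 nM. All groups stood apart, with a log2 fold change of −0.75 ± 0.0614 at 500 nM (edgeR adjusted p = 9.63e-09). HARS, DARS, RARS, QARS, LARS and EPRS fell as well, by between 0.17 (EPRS) and 0.63 (HARS). CARS, IARS, NARS, TARS and YARS did not pass the test, with log2 fold changes from −0.10 (IARS) to 0.06 (CARS). Of the multisynthetase complex enzymes 1 of 8 rose and 6 fell in TMD8, with a median of −0.30, and of the other 12 cytosolic genes 4 rose and 4 fell, with a median of −0.01. Among cytosolic genes with a promoter window, the element TGATGNAA was in 3 of 5 that rose (AARS, GARS and MARS), in 0 of 7 that fell and in 4 of 4 that were not called (CARS, IARS, NARS and TARS). That split holds on scaled counts only. On log2(TPM + 1) IARS, TARS, NARS and CARS were called lower (−0.468, −0.401, −0.365 and −0.316, limma adjusted p = 0.00140, 0.00543, 0.00561 and 0.0147). GARS turned to −0.1 there, and MARS lost its call (0.195, limma adjusted p = 0.102). After centring on all genes IARS and TARS were still called lower. The letters were in 1217 of 27305 genes of the whole promoter table (4.46%), so 0 of 7 does not set the fallen genes apart from all genes.

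The mitochondrial enzymes that fell most in TMD8 were IARS2, MARS2 and LARS2. IARS2 was at 184, 168 and 169 CPM under DMSO, 135, 128 and 113 CPM under 150 nM and 103, 103 and 99.2 CPM under 500 nM. MARS2 was at 58.3, 56.7 and 54.7 CPM under DMSO, 46.7, 43.0 and 39.6 CPM under 150 nM and 34.9, 33.1 and 38.3 CPM under 500 nM. LARS2, the mitochondrial leucine enzyme, was at 64.0, 57.5 and 57.7 CPM under DMSO, 47.8, 51.0 and 44.8 CPM under 150 nM and 42.7, 39.8 and 40.9 CPM under 500 nM. In all 3 the groups stood apart in the order of dose. The log2 fold changes at 500 nM were −0.77 ± 0.0603 for IARS2, −0.68 ± 0.0701 for MARS2 and −0.54 ± 0.0650 for LARS2 (edgeR adjusted p = 4.94e-09, 1.63e-07 and 1.25e-06). YARS2, EARS2, NARS2, PARS2, WARS2, TARS2, VARS2 and CARS2 fell by between 0.17 (CARS2) and 0.46 (YARS2), PARS2 with overlapping groups. The call of PARS2 was lost when DMSO replicate 2 or 3 or 500 nM replicate 1 or 2 was left out (edgeR adjusted p = 0.0608 to 0.219). The call of CARS2 was lost when 500 nM replicate 2 or 3 was left out (edgeR adjusted p = 0.0587 to 0.0660). AARS2, FARS2, HARS2, RARS2 and SARS2 did not pass the test, with log2 fold changes from −0.19 (RARS2) to 0.10 (HARS2, which turned to −0.23 on log2(TPM + 1)).

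TMD8 showed most of these changes already at 150 nM. There 6 cytosolic genes rose and 9 fell (median log2 fold change −0.11), and 0 mitochondrial genes rose and 9 fell (median −0.19), in a comparison that called 44.2% of the genes tested (19.2% higher, 25% lower) and had a median of 0.0113 over all genes. Of the 6 risen genes 5 had the same call at 500 nM, the exception being CARS, and all 9 fallen cytosolic and all 9 fallen mitochondrial genes had the same call at 500 nM. CARS was at 259, 236 and 238 CPM under DMSO, 268, 274 and 256 CPM under 150 nM and 258, 251 and 256 CPM under 500 nM. Its DMSO and 150 nM libraries overlapped, and the called change of 0.12 ± 0.0479 (edgeR adjusted p = 0.0485) became −0.033 on log2(TPM + 1). The call of CARS was lost when DMSO replicate 2 or 3 or 150 nM replicate 1 or 2 was left out (edgeR adjusted p = 0.0957 to 0.191). The call of LARS at 150 nM was lost when DMSO replicate 1 or 150 nM replicate 2 or 3 was left out (edgeR adjusted p = 0.0702 to 0.112). The call of NARS2 at 150 nM was lost when DMSO replicate 2 or 3 or 150 nM replicate 2 or 3 was left out (edgeR adjusted p = 0.0686 to 0.188). The call of VARS2 at 150 nM was lost when DMSO replicate 2 or 3 or 150 nM replicate 3 was left out (edgeR adjusted p = 0.0665 to 0.223). That of QARS was lost without 150 nM replicate 3 (edgeR adjusted p = 0.0848). For mitochondrial genes, 0 were higher at an unadjusted p under 0.05 in edgeR and 0 in DESeq2, while edgeR with no scaling beyond library size called 5 lower and 1 higher.

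Between the doses, more of the 36 genes were called in OCI-Ly1 than in TMD8, as were more of all genes. From 150 to 500 nM in OCI-Ly1, 11 cytosolic genes rose and 7 fell (median 0.33), and 1 mitochondrial gene rose and 6 fell (median −0.08), where 46.2% of all genes were called (25.1% higher, 21.1% lower). In TMD8, 3 cytosolic genes rose and 7 fell (median −0.06), and 0 mitochondrial genes rose and 5 fell (median −0.14), where 28.7% were called (13.7% higher, 15% lower). WARS changed by 1.79 ± 0.0575 on the log2 scale between the doses in OCI-Ly1 (edgeR adjusted p = 1.81e-13) and by 0.27 ± 0.0515 in TMD8 (edgeR adjusted p = 8.52e-04). The mitochondrial counts moved with single libraries: in OCI-Ly1 the count of risen genes was 3 without 150 nM replicate 1 and 0 without 150 nM replicate 2 or 500 nM replicate 1, and in TMD8 the count of fallen genes was 2 without 150 nM replicate 2 or 500 nM replicate 2 and 3 without 500 nM replicate 3.

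The difference between the lines was tested directly, by taking the TMD8 change from the OCI-Ly1 change at the same dose. At 500 nM it was above 0 for 17 of the 20 cytosolic genes and for 7 of the 16 mitochondrial genes, and below 0 for none, where 46.4% of the 16604 genes tested were called (28.2% higher, 18.1% lower). The median difference was 0.60 for the cytosolic genes and 0.20 for the mitochondrial genes, against 0.0490 over all genes. At an unadjusted p under 0.05 in edgeR the count below 0 was 0 cytosolic genes and 1 mitochondrial gene, HARS2 (−0.25), and 1 mitochondrial gene was called below 0 without OCI-Ly1 500 nM replicate 1, without TMD8 500 nM replicate 3, and with no scaling beyond library size. CARS differed most, by 1.34 ± 0.0746 (edgeR adjusted p = 1.47e-13), having risen in OCI-Ly1 without a call in TMD8. TARS differed by 1.33 ± 0.0951 (edgeR adjusted p = 2.18e-11). Its TMD8 libraries measured 181, 158 and 157 CPM under DMSO, 168, 168 and 159 CPM under 150 nM and 162, 162 and 163 CPM under 500 nM, and every pair of those groups overlapped. WARS, which rose in both lines, differed by 1.26 ± 0.0824 (edgeR adjusted p = 3.73e-12).

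Each gene can be placed by its calls on scaled counts at 500 nM in the 2 lines. AARS, GARS, MARS, SARS and WARS rose in both, while CARS, IARS, NARS, TARS and YARS rose in OCI-Ly1 and were not called in TMD8. On log2(TPM + 1) GARS, MARS and SARS were not called in TMD8 (limma adjusted p = 0.416, 0.102 and 0.922). On that scale CARS, IARS, NARS, TARS and YARS were called lower there. FARSA, FARSB, HARS, KARS, QARS, RARS and VARS fell in both, as did CARS2, EARS2, IARS2, MARS2, TARS2 and YARS2. LARS, NARS2, PARS2 and WARS2 rose in OCI-Ly1 and fell in TMD8. Of these, the OCI-Ly1 calls of NARS2, PARS2 and WARS2 and the TMD8 call of PARS2 were lost when single libraries were left out. DARS, EPRS, LARS2 and VARS2 fell in TMD8 alone among the calls, AARS2 and HARS2 in OCI-Ly1 alone, and FARS2, RARS2 and SARS2 were called in neither. Of the genes that rose in both, the difference was 0.78 for GARS and 0.38 for MARS. For AARS it did not pass the test, at −0.02 with a 95% interval of −0.17 to 0.13, and neither did QARS (95% interval −0.17 to 0.15) nor RARS (−0.21 to 0.14) among those that fell in both. For FARSA, KARS and VARS, the fall was smaller in OCI-Ly1, by 0.59, 0.61 and 0.57.

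**Figure D3:**
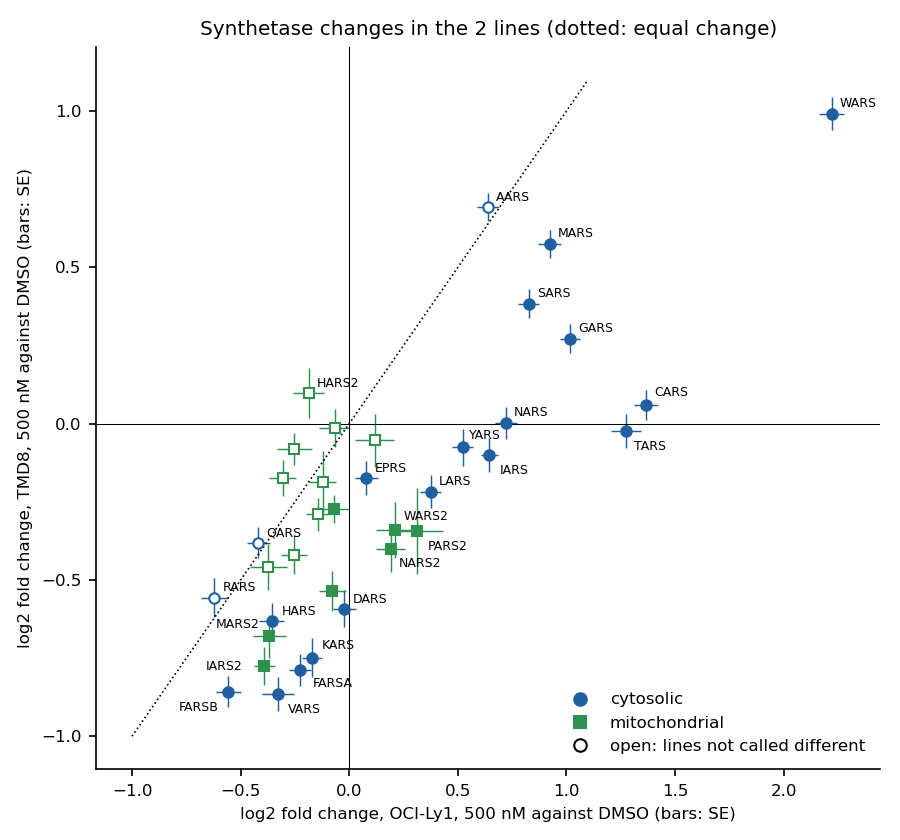
Log2 fold change at 500 nM against DMSO in OCI-Ly1 (horizontal axis) and TMD8 (vertical axis) for the 36 genes, with SE bars, circles for cytosolic and squares for mitochondrial enzymes, filled where the tested difference between lines passed an adjusted p of 0.05. All 24 filled points lie below the dotted line of equal change, with CARS, TARS and WARS farthest from it. On log2(TPM + 1) the TMD8 values of GARS, SARS, CARS, NARS and HARS2 turn below 0.

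At 150 nM the difference was above 0 for 10 cytosolic and 4 mitochondrial genes, and below 0 for AARS, MARS and WARS, where 23.3% of all genes were called (15% higher, 8.33% lower). For WARS it was −0.28 ± 0.0833 (edgeR adjusted p = 0.0143), so the change at the lower dose was larger in TMD8 and that at the higher dose was larger in OCI-Ly1. For AARS it was −0.30 ± 0.0759 at 150 nM (edgeR adjusted p = 0.00512). For MARS it was −0.23 ± 0.0752 (edgeR adjusted p = 0.0293), and that call was lost when OCI-Ly1 DMSO replicate 1, OCI-Ly1 150 nM replicate 2 or 3, TMD8 DMSO replicate 2 or 3 or TMD8 150 nM replicate 2 was left out (edgeR adjusted p = 0.0581 to 0.102). The count of mitochondrial genes above 0 was 2 without OCI-Ly1 DMSO replicate 3 or TMD8 150 nM replicate 3, and 1 with no scaling beyond library size.

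For 13 amino acids the list holds 1 cytosolic and 1 mitochondrial enzyme, and the ratio of their TPM within a library does not depend on how libraries are scaled. At 500 nM the ratio was higher than with DMSO in 10 pairs and lower in 3, in each line, and the 3 libraries at 500 nM did not overlap the 3 DMSO libraries in any of the 13 pairs. The higher ratios were those of the alanine, cysteine, isoleucine, leucine, methionine, asparagine, serine, threonine, tryptophan and tyrosine pairs, and the lower ones those of the histidine, arginine and valine pairs, the same amino acids in both lines. The median change of the log2 ratio was 0.89 in OCI-Ly1 (range −0.50 to 1.96) and 0.38 in TMD8 (range −0.73 to 1.31). At 150 nM, 8 pairs in OCI-Ly1 were higher and 0 lower without overlap (median change 0.23), and in TMD8 8 were higher and 3 lower (median change 0.27). Non-overlap was not counted among pairs of other genes at either dose, so it cannot be called particular to these enzymes. Of all single genes tested, 53.6% in OCI-Ly1 and 60.7% in TMD8 were called at 500 nM, and 0.889% and 44.2% at 150 nM.

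Some pairs had called changes in opposite directions. In OCI-Ly1 at 500 nM these were AARS, CARS, IARS, MARS, TARS and YARS, which rose while AARS2, CARS2, IARS2, MARS2, TARS2 and YARS2 fell, although the calls of AARS2 and TARS2 did not hold when single libraries were left out. CARS to CARS2 went from 0.788 ± 0.0332 with DMSO to 2.52 ± 0.0679 at 500 nM (TPM ratio, mean ± SD of 3 libraries), which turned the cytosolic enzyme from the lower to the higher of the pair. AARS was at 344, 329 and 324 CPM under DMSO, 395, 349 and 363 CPM under 150 nM and 533, 522 and 498 CPM under 500 nM, while AARS2 was at 45.5, 47.1 and 40.0 CPM under DMSO, 45.9, 41.2 and 41.3 CPM under 150 nM and 34.8, 40.9 and 35.5 CPM under 500 nM. The AARS to AARS2 ratio went from 11.0 ± 0.820 to 20.4 ± 1.87. MARS was at 265, 241 and 249 CPM under DMSO, 303, 279.9 and 282 CPM under 150 nM and 488, 485 and 458 CPM under 500 nM, and its ratio to MARS2 went from 6.06 ± 0.572 to 14.8 ± 0.888. YARS was at 257, 270.0 and 260.0 CPM under DMSO, 293, 284 and 277 CPM under 150 nM and 393, 373 and 364 CPM under 500 nM, a rise without overlap that gave a YARS to YARS2 ratio of 4.11 ± 0.342 with DMSO and 7.68 ± 0.788 at 500 nM. CARS2 was at 49.8, 48.7 and 48.8 CPM under DMSO, 49.9, 45.6 and 45.5 CPM under 150 nM and 40.1, 38.8 and 40.2 CPM under 500 nM and TARS2, the mitochondrial threonine enzyme, at 63.6, 64.0 and 63.1 CPM under DMSO, 60.5, 59.5 and 55.3 CPM under 150 nM and 59.1, 57.6 and 56.1 CPM under 500 nM. The 500 nM libraries of both lay below DMSO, those of TARS2 overlapped with 150 nM, and the call of TARS2 was lost without any 1 of the 6 libraries compared (edgeR adjusted p = 0.0579 to 0.142).

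In TMD8 the opposite pairs at 500 nM on scaled counts were MARS with MARS2 and WARS with WARS2. On log2(TPM + 1) the MARS call at 500 nM was lost (0.195, limma adjusted p = 0.102). At 150 nM the CARS pair was also opposite on scaled counts, but the CARS call there was lost without any 1 of 4 libraries (edgeR adjusted p = 0.0957 to 0.191) and its sign turned on log2(TPM + 1). The MARS to MARS2 ratio went from 2.61 ± 0.0605 with DMSO through 4.65 ± 0.389 at 150 nM to 6.25 ± 0.550 at 500 nM. WARS2 was at 26.1, 23.0 and 21.2 CPM under DMSO, 20.2, 19.4 and 19.5 CPM under 150 nM and 20.3, 17.4 and 17.3 CPM under 500 nM in TMD8, with called log2 fold changes of −0.24 at 150 nM and −0.34 at 500 nM. The WARS to WARS2 ratio rose from 5.15 ± 0.206 to 12.8 ± 0.969 in TMD8 and from 5.53 ± 0.183 to 21.6 ± 1.88 in OCI-Ly1. CARS2 was at 57.5, 56.4 and 54.9 CPM under DMSO, 48.8, 48.8 and 47.5 CPM under 150 nM and 53.1, 48.6 and 47.2 CPM under 500 nM in TMD8. It was lower at both doses than with DMSO, without overlap, while the 150 and 500 nM libraries overlapped. The call of WARS2 at 150 nM was lost when DMSO replicate 1 or 2 or 150 nM replicate 2 or 3 was left out (edgeR adjusted p = 0.0518 to 0.126).

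**Figure D4:**
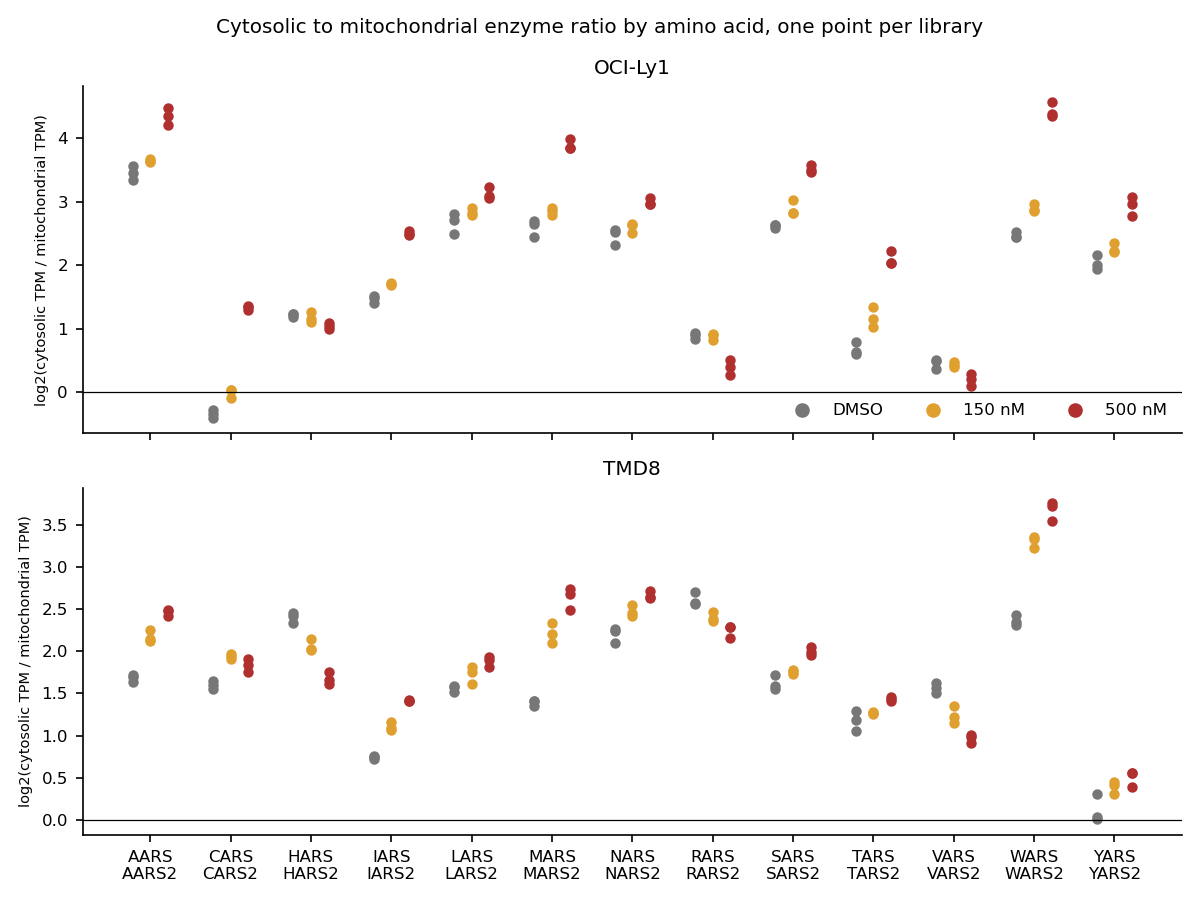
Log2 ratio of cytosolic to mitochondrial enzyme TPM (vertical axis) for the 13 amino acids with 1 listed enzyme of each kind, with 1 point per library and colours for DMSO, 150 nM and 500 nM, OCI-Ly1 above and TMD8 below. The 500 nM points lie above the DMSO points in 10 pairs and below them in the histidine, arginine and valine pairs, in both lines. The CARS to CARS2 ratio crosses 0 in OCI-Ly1.

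The histidine pair went the other way. HARS and HARS2 start back to back on chromosome 5, with first bases at 140691370 and 140691455 in GRCh38.p14. These lie 85 bases apart on opposite strands, so their promoter windows share 184 bases. From these starts the 2 genes run away from each other, so transcripts that begin there do not overlap. Reads shared by transcripts with other starts were not examined. In OCI-Ly1 HARS was at 82.3, 82.7 and 81.3 CPM under DMSO, 82.2, 76.3 and 78.5 CPM under 150 nM and 65.9, 61.4 and 64.8 CPM under 500 nM. HARS2 was at 38.1, 39.7 and 37.8 CPM under DMSO, 41.5, 37.6 and 35.6 CPM under 150 nM and 35.9, 32.3 and 33.2 CPM under 500 nM. At 500 nM both lay below their DMSO libraries, HARS2 with overlap between the doses, with log2 fold changes of −0.36 ± 0.0557 for HARS and −0.19 ± 0.0720 for HARS2 (edgeR adjusted p = 3.53e-05 and 0.0372). In TMD8 HARS was at 78.9, 78.7 and 75.4 CPM under DMSO, 67.0, 57.8 and 61.7 CPM under 150 nM and 51.7, 48.5 and 49.9 CPM under 500 nM. There HARS2 was at 15.7, 16.1 and 16.2 CPM under DMSO, 16.6, 15.4 and 16.7 CPM under 150 nM and 17.9, 17.3 and 16.2 CPM under 500 nM. HARS fell by 0.63 (SE 0.0586, edgeR adjusted p = 4.42e-08) while HARS2 was not called, at 0.10 (95% interval −0.06 to 0.25). The HARS to HARS2 ratio fell from 5.28 ± 0.209 to 3.20 ± 0.161 in TMD8 and from 2.33 ± 0.0422 to 2.06 ± 0.0609 in OCI-Ly1. In OCI-Ly1 the call of HARS2 was lost when DMSO replicate 1 or 2 or 500 nM replicate 2 or 3 was left out (edgeR adjusted p = 0.0531 to 0.115).

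Summed over each set, cytosolic enzymes held 2358 ± 78.2 TPM with DMSO, 2603 ± 101 TPM at 150 nM and 3572 ± 37.8 TPM at 500 nM in OCI-Ly1 (mean ± SD of 3 libraries). The mitochondrial enzymes held 415 ± 2.52, 412 ± 4.64 and 406 ± 13.1 TPM there. The ratio of the sums went from 5.68 ± 0.215 to 6.32 ± 0.274 and 8.80 ± 0.275. In TMD8 the cytosolic sum was 972 ± 129, 815 ± 39.3 and 663 ± 35.8 TPM, and the mitochondrial sum 204 ± 21.5, 157 ± 6.90 and 122 ± 5.47 TPM. DMSO replicate 1 held the highest cytosolic sum of the TMD8 libraries, 1121 TPM against 906 and 889 TPM in the other DMSO libraries. The mean cytosolic sum was therefore highest at 500 nM in OCI-Ly1 and lowest at 500 nM in TMD8. The size of the TMD8 fall depends on the scaling. The median of all genes there was also lower in TPM, at −0.219 on log2(TPM + 1). In TMM-scaled CPM, which is not per length, the cytosolic sum was 3844 ± 183 with DMSO and 3471 ± 35.6 at 500 nM and the mitochondrial sum 823 ± 15.5 and 629 ± 11.2. DMSO replicate 1 again held the highest cytosolic sum, 4055 CPM against 3733 and 3743 CPM in the other DMSO libraries. On the log2 scale the cytosolic change in TMD8 was −0.545 in TPM and −0.146 in CPM. The TMD8 ratio of the TPM sums went from 4.75 ± 0.127 to 5.18 ± 0.0323 and 5.42 ± 0.0886. The last step of it turned direction with the measure, from 0.064 on the log2 scale to −0.054 for the median over the 13 pairs, and the step from DMSO to 150 nM was 0.125 and 0.338.

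Genes that work with the synthetases were read in 4 further lists. The first holds 17 genes of the integrated stress response other than the synthetases, of which 16 were tested and NUPR1 fell below the filter. In OCI-Ly1 11 rose at 150 nM (median log2 fold change 0.53), and 15 rose and 1 fell at 500 nM (median 1.93), beside 0.748% of all genes higher at 150 nM and 27.7% at 500 nM. In TMD8 14 rose at 150 nM (median 0.91), and 14 rose and 1 fell at 500 nM (median 1.40), beside 19.2% and 29.9% of all genes higher. The largest rises in OCI-Ly1 at 500 nM were those of ATF3 (log2 fold change 6.13, from 3 to 14 estimated counts with DMSO), CHAC1 (4.62) and CEBPB (4.10). In TMD8 they were those of CHAC1 (5.86, from 6 to 13 estimated counts with DMSO), SESN2 (3.67) and CEBPB (3.02). ATF3 and CEBPB encode transcription factors, CHAC1 a glutathione-degrading enzyme and SESN2 a stress-induced inhibitor of mTORC1 signalling. ATF4, named here outside the rule because its element was searched, was at 523, 522 and 505 CPM under DMSO, 582, 569 and 586 CPM under 150 nM and 828, 826 and 788 CPM under 500 nM in OCI-Ly1 and 140.4, 136 and 137 CPM under DMSO, 239, 257 and 268 CPM under 150 nM and 327, 333 and 347 CPM under 500 nM in TMD8. Its RNA rose by 0.66 ± 0.0419 in OCI-Ly1 and 1.29 ± 0.0506 in TMD8 at 500 nM (edgeR adjusted p = 5.12e-10 and 1.09e-12), a difference between lines of −0.60 ± 0.0700 (edgeR adjusted p = 1.32e-07). The sign of that difference was opposite to the sign in the 17 cytosolic synthetases that differed. ATF4 does not stand for its list, whose 17 genes were all tested for this difference. Of them 7 were called above 0 and 6 below 0 (median 0.04), beside 28.2% and 18.1% of all genes. How ATF4 RNA bears on the synthetases was not tested.

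The second list holds 13 other proteins of mitochondrial translation. At 500 nM 0 rose in either line (0 also at an unadjusted p under 0.05 in edgeR), 8 fell in OCI-Ly1 (median −0.31) and 11 fell in TMD8 (median −0.35), beside 25.9% and 30.7% of all genes lower. The largest falls were those of MTFMT (−0.49), which formylates the initiator methionyl-tRNA, MRRF (−0.44), the ribosome recycling factor, and the initiation factor MTIF3 (−0.40) in OCI-Ly1. In TMD8 they were those of the elongation factors GFM1 (−0.65), TSFM (−0.60) and TUFM (−0.59). At 150 nM 0 were called in OCI-Ly1 (0 at an unadjusted p under 0.05 in edgeR) and 10 fell in TMD8, where 25% of all genes were lower.

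The third list holds 8 scaffold and elongation proteins of the cytosol. At 500 nM 2 rose and 2 fell in OCI-Ly1 and 1 rose and 5 fell in TMD8, beside 53.6% and 60.7% of all genes called in either direction. AIMP2, a scaffold of the multisynthetase complex, rose in OCI-Ly1 (0.36 ± 0.0652, edgeR adjusted p = 1.50e-04) and fell in TMD8 (−1.11 ± 0.0881, edgeR adjusted p = 6.08e-09). It was at 39.7, 36.6 and 35.7 CPM under DMSO, 38.5, 36.7 and 36.4 CPM under 150 nM and 49.9, 46.7 and 47.4 CPM under 500 nM in OCI-Ly1. Its TMD8 libraries measured 45.6, 38.5 and 37.7 CPM under DMSO, 27.7, 26.4 and 25.2 CPM under 150 nM and 20.1, 16.7 and 19.4 CPM under 500 nM. The tested difference was 1.51 ± 0.114 (edgeR adjusted p = 6.31e-11). The other largest changes were EEF1A1 (−0.51) and EEF1G (−0.34), elongation factor subunits, in OCI-Ly1, and EEF1E1 (−0.86) and AIMP1 (−0.28), both proteins of the complex, in TMD8.

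The last list holds 10 genes of tRNA processing, export and editing, of which 3 rose and 5 fell in OCI-Ly1 and 1 rose and 6 fell in TMD8 at 500 nM, beside the same 53.6% and 60.7% of all genes called. XPOT, the exporter of tRNA from the nucleus, rose in both on scaled counts (0.83 in OCI-Ly1 and 0.26 in TMD8), but its TMD8 libraries overlapped in TPM, at 39.9, 31.0 and 30.4 TPM with DMSO and 29.0, 31.6 and 32.2 TPM at 500 nM. TRNT1, which adds the CCA end of tRNA, fell in both (−0.61 and −0.62). PSTK, the kinase that prepares the selenocysteine tRNA, rose in OCI-Ly1 (0.65). DTD1, which removes D-amino acids from tRNA, and ELAC2, which trims tRNA 3′ ends, fell in TMD8 (−1.05 and −0.83).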

How the data were processed

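RNA was sequenced after ribosomal RNA depletion, with paired-end libraries, per the labels' protocols. The authors deposited, for each line, a table of estimated counts per gene, not scaled for depth, and a table of TPM values. Kallisto 0.46.0, R 4.3.1, DESeq2 1.40.2 and the build hg19 are named in the submitters' processing notes, without roles, and the index and annotation are not given in the sources used here. Estimated counts were rounded to whole numbers and fitted with edgeR 4.0.16 in R 4.3.3 (quasi-likelihood test, TMM, edgeR's low-count filter by group), with the 9 libraries of a line in 1 fit and no replicate block. The difference between lines was fitted over all 18 libraries. P-values were adjusted by Benjamini-Hochberg over all genes tested, and genes were called at an adjusted p under 0.05. Each SE was taken from the size of the log2 fold change and the F statistic (their ratio, with F under a square root), and 95% intervals reach 1.96 SE on each side. CPM are TMM-scaled, and TPM served for levels between genes and for ratios. Alternatives were DESeq2 1.42.0, limma 3.58.1 on log2(TPM + 1), the same centred, and log2(TPM + 0.1), other scalings, no filter, only the groups compared, a replicate block and leaving out each library.

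Library totals of 9550092 to 32651115 counts and at least 100 counts of each synthetase gene set the precision. Promoter sequences are from RefSeq (GRCh38.p14), which is not the build of the tables, and serve by gene name only. The counting is not stated to use strand. Scripts were tested on simulated data. The listed genes, the other lists and the tests were chosen with earlier results of these data known. Values in every library are given, at 500 nM, in each line, for the 4 cytosolic genes that rose most and the 2 that fell most among those called, for the 3 called mitochondrial genes at either end, and the 3 largest differences between lines in each direction, for up to 6 genes called at 150 nM in OCI-Ly1, for pairs with opposite calls, and for HARS, HARS2, GARS and KARS. Up to 3 called genes are named per further list and line.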

Additional observations from a re-analysis of the deposited data

Results flagged for a closer look

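These values are set out because the tested difference between the cell lines, the OCI-Ly1 log2 fold change less the TMD8 one, passed an adjusted p of 0.05 in edgeR. Cell line and medium cannot be told apart in any of them.

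At 500 nM the difference was above 0 for 24 genes. Among the cytosolic enzymes it was 1.34 for CARS, 1.33 for TARS, 1.26 for WARS, 0.78 for GARS, 0.78 for IARS, 0.75 for NARS, 0.63 for YARS, 0.62 for LARS and 0.61 for KARS. It was smaller, at 0.60 for DARS, 0.59 for FARSA, 0.57 for VARS, 0.47 for SARS, 0.38 for MARS, 0.33 for FARSB, 0.30 for HARS and 0.28 for EPRS. Among the mitochondrial enzymes it was 0.68 for PARS2, 0.62 for NARS2, 0.59 for WARS2, 0.49 for LARS2, 0.41 for IARS2, 0.34 for MARS2 and 0.23 for VARS2. The value of VARS2 lost its call without OCI-Ly1 DMSO replicate 3, OCI-Ly1 500 nM replicate 2 or 3, TMD8 DMSO replicate 3, or TMD8 500 nM replicate 1, 2 or 3 (edgeR adjusted p = 0.0580 to 0.122).

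At 150 nM the difference passed for 17 genes. Among the cytosolic enzymes above 0 it was 0.49 for FARSB, 0.48 for KARS, 0.39 for DARS, 0.39 for RARS, 0.39 for VARS, 0.37 for TARS, 0.33 for IARS, 0.29 for FARSA, 0.27 for HARS and 0.27 for LARS. Below 0 it was −0.30 for AARS, −0.28 for WARS and −0.23 for MARS. Among the mitochondrial enzymes it was 0.45 for IARS2, 0.35 for MARS2, 0.30 for EARS2 and 0.27 for LARS2. Without TMD8 150 nM replicate 2 the value of HARS was 0.231 and was not called (edgeR adjusted p = 0.0539). The call of LARS2 was lost without OCI-Ly1 DMSO replicate 2 or 3, OCI-Ly1 150 nM replicate 3, TMD8 DMSO replicate 1 or TMD8 150 nM replicate 3 (edgeR adjusted p = 0.0642 to 0.132). That of MARS2 was lost without OCI-Ly1 DMSO replicate 3, OCI-Ly1 150 nM replicate 1 or TMD8 150 nM replicate 3 (edgeR adjusted p = 0.0525 to 0.0780).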

How the results depend on the processing

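The measurements are limited by 3 technical libraries per group, 1 culture medium per line and no stated treatment time. Depth limits the least abundant genes most, PARS2 above all. The TPM tables move the median of all genes at 500 nM to −0.219 (TPM + 1) and −0.309 (TPM + 0.1) in TMD8 and to 0.101 and 0.130 in OCI-Ly1, so directions of small changes in TMD8 rest on the scaling. The cause of the changes below was not tested. Of the called genes, those called under every alternative fitted to counts were 3 of 6 at 150 nM and 22 of 29 at 500 nM in OCI-Ly1, 17 of 24 and 23 of 26 in TMD8, and 12 of 17 and 23 of 24 for the difference between lines.

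Under log2(TPM + 1) and log2(TPM + 0.1) alike, cytosolic genes called higher went from 6 to 3 in OCI-Ly1 at 150 nM, from 6 to 3 in TMD8 at 150 nM, from 5 to 2 in TMD8 at 500 nM and from 3 to 0 in TMD8 between the doses. Cytosolic genes called lower in OCI-Ly1 went from 7 to 4 at 500 nM and between the doses. Mitochondrial genes called lower in OCI-Ly1 went from 8 to 4 at 500 nM and from 6 to 2 between the doses, those called higher between the doses from 1 to 4, and those called lower in TMD8 between the doses from 5 to 8. Reversals occurred on these scales. The mitochondrial median in OCI-Ly1 went from −0.132 to 0.005 at 500 nM, and from −0.083 to 0.024 (TPM + 1) and 0.025 (TPM + 0.1) between the doses. CARS in TMD8 at 150 nM went from 0.121 to −0.033. At 500 nM in TMD8, under TPM + 1 and TPM + 0.1, CARS went from 0.06 to −0.316 and −0.321, GARS from 0.272 to −0.1 and −0.102, NARS from 0.003 to −0.365 and −0.373, SARS from 0.384 to −0.012 on both, and HARS2 from 0.099 to −0.23 and −0.277. Centring on the median of all genes gave 2 cytosolic genes higher in OCI-Ly1 at 150 nM, 0 mitochondrial genes higher in OCI-Ly1 at 500 nM and between the doses, and 8 mitochondrial genes lower in TMD8 between the doses.

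With no scaling beyond library size, mitochondrial genes called lower were 5 in OCI-Ly1 at 500 nM, 3 in OCI-Ly1 between the doses and 5 in TMD8 at 150 nM. Those called higher were 3 in OCI-Ly1 between the doses and 1 in TMD8 at each dose, and for the difference between lines 1 was above 0 at 150 nM and 1 below 0 at 500 nM. Without the low-count filter 1 mitochondrial gene was called higher in OCI-Ly1 at 500 nM.

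Against the log2 ratio of the summed cytosolic and mitochondrial TPM, each library's median log2 ratio over the 13 pairs changed by 0.226 in place of 0.153 in OCI-Ly1 at 150 nM, by 0.863 in place of 0.632 at 500 nM and by 0.638 in place of 0.479 between the doses. In TMD8 it changed by 0.338 in place of 0.125 at 150 nM, by 0.285 in place of 0.189 at 500 nM and by −0.054 in place of 0.064, a reversal, between the doses.

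In an alternative chosen after seeing the data, sums of TMM-scaled CPM in place of TPM changed on the log2 scale as follows. The cytosolic sum changed by 0.481 in place of 0.6 at 500 nM and 0.362 in place of 0.458 between the doses in OCI-Ly1, and by −0.146 in place of −0.545 and −0.065 in place of −0.298 in TMD8. The mitochondrial sum changed by −0.046 in place of −0.01 at 150 nM, −0.186 in place of −0.032 at 500 nM and −0.14 in place of −0.022 between the doses in OCI-Ly1, and by −0.388 in place of −0.734 at 500 nM and −0.155 in place of −0.362 between the doses in TMD8.

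Leaving out 1 library gave 3 to 6 cytosolic genes higher in OCI-Ly1 at 150 nM (3 without 150 nM replicate 2 or 3). For mitochondrial genes it gave 0 to 2 higher in OCI-Ly1 at 500 nM (0 without DMSO replicate 1 or 500 nM replicate 1), 5 to 7 lower there (5 without DMSO replicate 2 or 500 nM replicate 3), 0 to 3 higher in OCI-Ly1 between the doses and 2 to 7 lower in TMD8 between the doses. For the difference between lines it gave 2 to 4 mitochondrial genes above 0 at 150 nM and 0 to 1 below 0 at 500 nM.

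Correlations of library deviations cannot decide whether the replicate numbers pair the libraries, because same-number and different-number ranges overlap. For OCI-Ly1 the same-number range was −0.0462 to 0.146, against −0.173 to 0.0419 for different numbers. For TMD8 it was −0.0545 to 0.141, against −0.190 to 0.105. Each line had its highest values between DMSO and 150 nM libraries numbered 1 (OCI-Ly1 0.123, TMD8 0.125) and 3 (OCI-Ly1 0.146, TMD8 0.141). Those numbered 2 gave less (OCI-Ly1 0.0109, TMD8 −0.0545). With the replicate number as a block the counts were 7 cytosolic genes higher in OCI-Ly1 at 150 nM, 11 higher and 7 lower at 500 nM there, and 5 higher and 10 lower in TMD8 at 500 nM. For mitochondrial genes the block gave 2 higher and 8 lower in OCI-Ly1 and 11 lower in TMD8 at 500 nM. The block added calls for MARS in OCI-Ly1 at 150 nM (adjusted p = 0.0371, edgeR) and for the difference of EARS2 at 500 nM (adjusted p = 0.047, edgeR), and lost those of WARS2 in OCI-Ly1 at 500 nM (adjusted p = 0.053, edgeR) and NARS2 in TMD8 at 150 nM (adjusted p = 0.0502, edgeR).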

Other observations

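GARS and KARS, the 2 genes that each serve both compartments, had opposite calls on scaled counts at 500 nM in OCI-Ly1, where GARS rose by 1.02 and KARS fell by 0.17. The KARS call there was lost on log2(TPM + 1), at −0.045, and with no scaling beyond library size, at −0.086. In TMD8 GARS and KARS were opposite on scaled counts (0.27 and −0.75), while on log2(TPM + 1) GARS was at −0.1. FARSA and FARSB, which must pair to make 1 enzyme, fell together in both lines on scaled counts, by 0.22 and 0.56 in OCI-Ly1 and by 0.79 and 0.86 in TMD8. The FARSA call in OCI-Ly1 was lost on log2(TPM + 1) (−0.086, limma adjusted p = 0.168).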
